A study of Homo sapiens with 6 samples.

Results

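The genes described here are 9 components of insulin and insulin-like growth factor signalling, namely the receptors INSR and IGF1R, the docking proteins IRS1 and IRS2, the lipid kinase subunit PIK3CA, the kinase AKT1, the transcription factors FOXO1 and FOXO3, and the coregulator CITED2. They were taken by symbol from a table of 11314 genes, and all 9 had a row. Messenger RNA was measured in a subline of SNU-668, a long-established line of human gastric cancer cells, described as resistant to erastin, a blocker of cystine uptake that triggers ferroptosis. Libraries titled SPIN1, replicates 1 to 3, stand for transfection with a short hairpin RNA against the histone reader SPIN1, and 3 libraries titled NC for transfection with a control hairpin. All 6 libraries share the resistant background, and growth in serum-supplemented medium is given for all of them. The genotype entries name the groups the other way round, the design text names ALKBH3 as the hairpin target, and RLS3 at the start of each title is not explained, so the groups are those of the titles and every direction rests on them. No source says whether the replicates were separate cultures or how many clones the subline holds, so the p-values cover the spread among these libraries alone, which may be technical. SPIN1 libraries and NC libraries are used below as short names for the titles.

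Insulin and insulin-like growth factors bind receptor tyrosine kinases, which phosphorylate the IRS docking proteins. These recruit PI3K, whose lipid product brings AKT to the membrane, and AKT phosphorylates FOXO proteins so that they leave the nucleus. When the pathway is quiet, FOXO proteins enter the nucleus and switch on genes of arrest, stress resistance and catabolism, and INSR and IRS2 are themselves known FOXO targets in several tissues. In cancer cells the same pathway drives growth, and PIK3CA and AKT1 are oncogenes.

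SPIN1, the target named by the titles, stood at 0.324, 0.629 and 2.49 FPKM in SPIN1 libraries and at 0.322, 6.18 and 7.97 FPKM in NC libraries, so that NC replicate 1 lay among the SPIN1 libraries. FPKM are sequenced fragments per length of the gene model and per size of the library. Because the groups overlapped (limma adjusted p = 0.307, two-sided exact permutation p = 0.4, where 3 against 3 libraries allow no p below 0.1), the level of SPIN1 does not settle which title is right, and the tests of the 9 genes, their relatives and the list counts were also run without the libraries numbered 1. ALKBH3 overlapped too (limma adjusted p = 0.381, exact permutation p = 0.4). Median FPKM per library ran from 4.91 to 5.49 and 32.2% to 38.4% of summed FPKM came from mitochondrially encoded genes. The depth behind the values is unknown. Of the marker genes listed for epithelium, 4 of 10 had a row, with KRT7 at 174 to 207 FPKM and EPCAM at 1.44 FPKM at most; of the gastric list 2 of 12 had a row, of the fibroblast list 3 of 8, of the immune list 3 of 10 and of the endothelial list 1 of 6. Summed FPKM was 347 to 428 in SPIN1 libraries and 270 to 314 in NC libraries for the epithelial genes, and 4.26 to 6.46 in SPIN1 and 3.20 to 5.61 in NC libraries for the gastric genes. It was 182 to 261 in SPIN1 and 176 to 202 in NC libraries for the fibroblast genes, 91.3 to 156 in SPIN1 and 169 to 182 in NC libraries for the immune genes, and 0.348 to 1.22 in SPIN1 and 1.40 to 1.73 in NC libraries for the single endothelial gene. Most of the fibroblast sums was COL3A1, at 166 to 249 FPKM, and most of the immune sums was CD68, at 78.8 to 156 FPKM. Neither was called different between the groups (limma adjusted p = 0.379 and 0.169). KRT8 and KRT18 were higher in the libraries titled SPIN1, as were LUM and DCN of the fibroblast list, while CD14 and LYZ were lower. LYZ averaged 0.349 FPKM in SPIN1 and 0.995 FPKM in NC libraries. It passed the filter at 0.5 FPKM only through the NC libraries, so its call supports nothing. The part of these differences in the results below was not tested.

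Of the 9 genes, 5 were lower in the libraries titled SPIN1 (INSR, IRS1, IRS2, FOXO1 and CITED2), 0 were higher, and 4 did not pass the test (IGF1R, FOXO3, PIK3CA and AKT1). The test was limma on log2(FPKM + 1) over 11061 genes averaging 0.5 FPKM or more, with p-values adjusted by Benjamini-Hochberg over all of them and a threshold of 0.05. Over all genes tested, 27.6% were called, 10.3% lower and 17.3% higher; after quantile normalization 50.4% of calls were higher, against 62.7% without it and 53.2% after median scaling. In the same 5 genes every library titled SPIN1 lay below every library titled NC, a pattern that 18.8% of all tested genes showed (46% in either direction). The median difference was -0.64 on the log2 scale over the 9 genes and 0.05 over all genes tested. The genes were chosen with earlier results of these data known, so this count is a description. In bulk RNA, fewer cells that express a gene and less of its RNA per cell cannot be told apart.

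**Figure D1:**
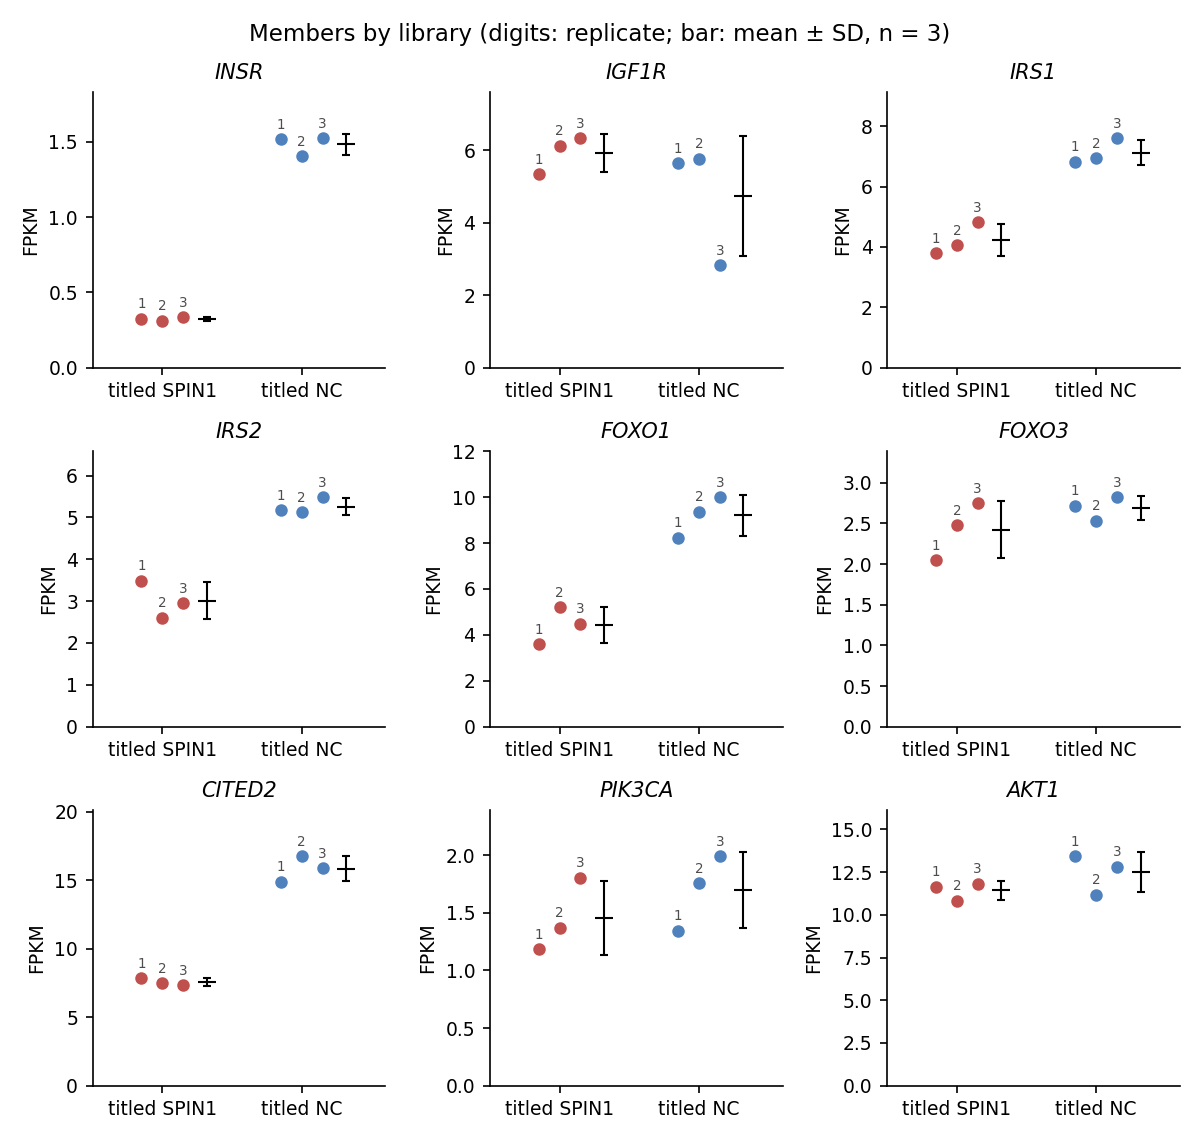
FPKM of the 9 genes in each library, titled SPIN1 in red on the left and titled NC in blue on the right of each panel, with replicate numbers and the mean ± SD (n = 3) beside the points. The groups are apart for INSR, IRS1, IRS2, FOXO1 and CITED2 and overlap for the other genes, and NC replicate 3 stands low for IGF1R at 2.82 FPKM.

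INSR, the insulin receptor (ENSG00000171105.13_3, hg19 chromosome 19, 7112266 to 7294045, minus strand), was low throughout. It was at 0.324, 0.313 and 0.335 FPKM in libraries titled SPIN1 and at 1.52, 1.40 and 1.53 FPKM in libraries titled NC. The 3 SPIN1 values lay within 1.07 times of each other and far under all NC values. The mean was 0.324 ± 0.0111 FPKM in SPIN1 libraries against 1.48 ± 0.0672 FPKM in NC libraries (SD, n = 3 each), 4.58-fold lower, with a log2 difference of -0.91 (SE 0.08, limma adjusted p = 0.000774). Adding 1 FPKM before the logarithm understates the change of so low a gene: with 0.01 FPKM added the log2 difference was -2.16. INSR averaged under the minimum of 0.5 FPKM in SPIN1 libraries and entered the test only through the NC libraries, where it was higher, so its call and its fold add no support to the count over the 9 genes.

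IGF1R, the receptor of insulin-like growth factors and the closest relative of INSR (ENSG00000140443.13_3, chromosome 15, 99192200 to 99507759, plus strand), stood at 5.33, 6.12 and 6.33 FPKM in SPIN1 libraries and at 5.63, 5.76 and 2.82 FPKM in NC libraries. Its groups overlapped, with NC replicate 3 apart from the other libraries. It missed the threshold (log2 difference 0.32, SE 0.23, limma adjusted p = 0.355), and without NC replicate 3 it was 0.05. Per library, INSR FPKM divided by IGF1R FPKM was 0.0607, 0.0512 and 0.0529 in SPIN1 libraries and 0.269, 0.244 and 0.540 in NC libraries. IGF1R was thus the more abundant receptor in all 6 libraries, by 16.5 to 19.5 times in those titled SPIN1 and by 1.85 to 4.10 times in those titled NC. IGF2R, a mannose phosphate receptor that carries IGF2 to lysosomes and has no kinase, was at 9.01 ± 0.655 FPKM in SPIN1 libraries and 10.3 ± 0.817 FPKM in NC libraries (n = 3 each, SD), with a limma adjusted p of 0.252.

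The transcripts of the IRS docking proteins were lower by like amounts. IRS1 (ENSG00000169047.5_2, chromosome 2, 227596033 to 227664475, minus strand) was at 3.80, 4.05 and 4.81 FPKM in SPIN1 libraries and at 6.82, 6.94 and 7.61 FPKM in NC libraries. The groups did not overlap, and the 1.69-fold lower mean gave a log2 difference of -0.64 (SE 0.11, limma adjusted p = 0.00799). IRS2 (ENSG00000185950.8_2, chromosome 13, 110405045 to 110438915, minus strand) was at 3.48, 2.60 and 2.96 FPKM in SPIN1 libraries and at 5.17, 5.13 and 5.49 FPKM in NC libraries. It was 1.75-fold lower, again without overlap (log2 difference -0.65, SE 0.12, limma adjusted p = 0.00848). The ratio of IRS1 to IRS2 FPKM was 1.43 ± 0.293 in SPIN1 libraries and 1.35 ± 0.0332 in NC libraries (SD, n = 3 each), and its groups overlapped, whereas their summed level was 7.24 ± 0.559 FPKM in SPIN1 libraries and 12.4 ± 0.619 FPKM in NC libraries.

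PIK3CA, the alpha catalytic subunit of PI3K (ENSG00000121879.3_3, chromosome 3, 178865902 to 178957881, plus strand), stood at 1.18, 1.37 and 1.81 FPKM in SPIN1 libraries and at 1.34, 1.76 and 1.99 FPKM in NC libraries. The groups overlapped in most of their range (log2 difference -0.14, SE 0.14, limma adjusted p = 0.510). The other catalytic subunits did not pass the test either: PIK3CB averaged 2.34 ± 0.458 FPKM in SPIN1 libraries and 2.03 ± 0.366 FPKM in NC libraries, and PIK3CD 2.48 ± 0.311 FPKM in SPIN1 libraries and 2.00 ± 0.319 FPKM in NC libraries (n = 3 each, SD), with limma adjusted p of 0.532 and 0.257. As a share of the summed FPKM of these 3 subunits, PIK3CA took 22.6%, 22.02% and 24.6% in SPIN1 libraries and 29.1%, 29.3% and 30.2% in NC libraries. The shares did not overlap although no subunit passed the test alone; the difference in share was not tested.

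AKT1, the kinase that carries the signal on (ENSG00000142208.15_3, chromosome 14, 105235686 to 105262088, minus strand), was at 11.6, 10.8 and 11.8 FPKM in SPIN1 libraries and at 13.4, 11.2 and 12.8 FPKM in NC libraries. These groups overlapped (log2 difference -0.12, SE 0.10, limma adjusted p = 0.441). AKT2, its main relative in insulin-responsive tissues, averaged 6.71 ± 0.349 FPKM in SPIN1 libraries and 6.66 ± 0.416 FPKM in NC libraries (limma adjusted p = 0.943). The regulatory subunits PIK3R1 and PIK3R2 of PI3K missed the threshold as well (limma adjusted p = 0.128 and 0.405), with 0.904 ± 0.114 and 40.9 ± 0.995 FPKM in SPIN1 libraries and 0.658 ± 0.0232 and 37.0 ± 6.24 FPKM in NC libraries. The groups overlapped for PIK3R2. For PIK3R1 every SPIN1 library lay above every NC library, where 46% of all tested genes did not overlap in either direction.

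FOXO1, the factor that carries much of the response to low insulin in liver (ENSG00000150907.7_3, chromosome 13, 41044090 to 41240734, minus strand), was at 3.60, 5.20 and 4.50 FPKM in SPIN1 libraries and at 8.24, 9.36 and 10.0 FPKM in NC libraries. The highest SPIN1 value lay well under the lowest NC value. The mean was 2.08-fold lower, at 4.43 ± 0.803 FPKM in SPIN1 libraries against 9.20 ± 0.897 FPKM in NC libraries (n = 3 each, SD). Its log2 difference was -0.92 (SE 0.14, limma adjusted p = 0.00520). FOXO3, a related factor with overlapping targets (ENSG00000118689.14_2, chromosome 6, 108881038 to 109005977, plus strand), stood at 2.05, 2.48 and 2.75 FPKM in SPIN1 libraries and at 2.72, 2.53 and 2.83 FPKM in NC libraries. It overlapped between the groups (log2 difference -0.11, SE 0.11, limma adjusted p = 0.502). FOXO3 and FOXO1 have close copies elsewhere in the genome, FOXO3B on chromosome 17 and the pseudogene FOXO1B on chromosome 5, and the sources used here do not say how shared fragments were assigned, so their levels are uncertain to that extent.

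FOXO4, the third widely expressed member of the family, was at 0.597, 0.496 and 0.552 FPKM in SPIN1 libraries and at 2.37, 1.84 and 2.18 FPKM in NC libraries. It was 3.89-fold lower without overlap (log2 difference -1.01, SE 0.10, limma adjusted p = 0.00109). FOXO6 was at 2.86, 1.63 and 1.43 FPKM in SPIN1 libraries and at 3.65, 2.68 and 3.35 FPKM in NC libraries, and SPIN1 replicate 1 reached into the NC range. The gene missed the threshold in the main fit (limma adjusted p = 0.0917) and passed it without that library (0.0140). FOXO6 passed in 3 of the 16 alternatives, not all of which left that library out. Summed over the 4 genes, FOXO transcripts came to 9.38 ± 0.376 FPKM in SPIN1 libraries and 17.3 ± 1.01 FPKM in NC libraries (SD, n = 3 each). FOXO3 made up 22.5% to 29.8% of that sum in SPIN1 libraries and 15.4% to 16.01% in NC libraries, while FOXO4 made up 5.06% to 6.56% in SPIN1 libraries and 11.2% to 14.0% in NC libraries. FOXO1 was the most abundant of the 4 genes in every library.

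**Figure D2:**
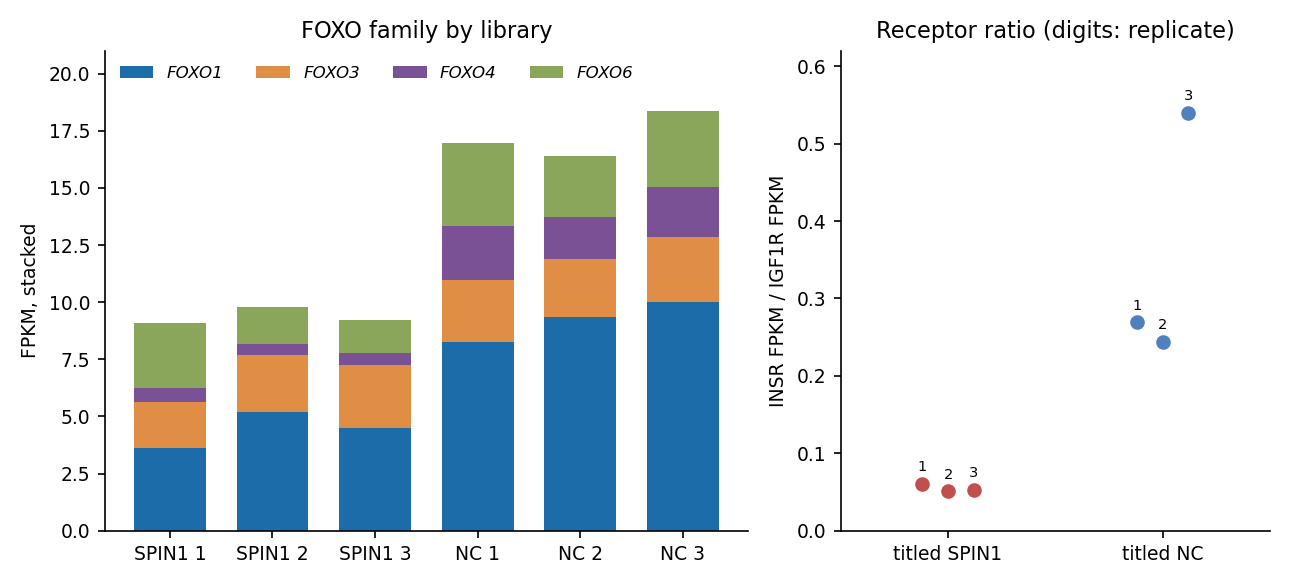
Left, stacked FPKM of FOXO1, FOXO3, FOXO4 and FOXO6 in each library, titled SPIN1 first and titled NC after it; right, the ratio of INSR to IGF1R FPKM per library. The stacks reach 9.10 to 9.81 FPKM in SPIN1 libraries and 16.4 to 18.4 FPKM in NC libraries, and the receptor ratio lies between 0.0512 and 0.0607 in SPIN1 libraries, against 0.244 to 0.540 in NC libraries.

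CITED2, a coregulator without a DNA-binding domain that binds the acetyltransferases CREBBP and EP300 and competes there with HIF1A (ENSG00000164442.9_2, chromosome 6, 139692944 to 139695757, minus strand), was at 7.86, 7.496 and 7.35 FPKM in SPIN1 libraries and at 14.9, 16.8 and 15.9 FPKM in NC libraries. The SPIN1 values lay close together, all under the NC values. The mean was 2.10-fold lower (log2 difference -0.98, SE 0.09, limma adjusted p = 0.000966). Its relative CITED4 was at 64.997, 52.2 and 40.5 FPKM in SPIN1 libraries and at 143, 81.7 and 78.5 FPKM in NC libraries, which did not overlap, with NC replicate 1 far above the others. It missed the threshold with that library (log2 difference -0.90, SE 0.27, limma adjusted p = 0.0536) and without it (-0.62, limma adjusted p = 0.0843). Of the partners of CITED2, singled out after their values were seen, CREBBP was lower at 3.22 ± 0.645 FPKM in SPIN1 libraries against 5.42 ± 0.172 FPKM in NC libraries, EP300 lower at 6.96 ± 1.12 FPKM in SPIN1 against 10.5 ± 0.908 FPKM in NC libraries, and HIF1A higher at 79.6 ± 10.8 FPKM in SPIN1 against 50.3 ± 8.10 FPKM in NC libraries (n = 3 each, SD). Their limma adjusted p were 0.0178, 0.0295 and 0.0206. Leaving out 1 library ended these calls in 2, 3 and 1 of 6 fits, with limma adjusted p up to 0.0662 for CREBBP without NC replicate 2 or 3, 0.102 for EP300 without SPIN1 replicate 2 or NC replicate 2 or 3, and 0.0551 for HIF1A without NC replicate 2.

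**Figure D3:**
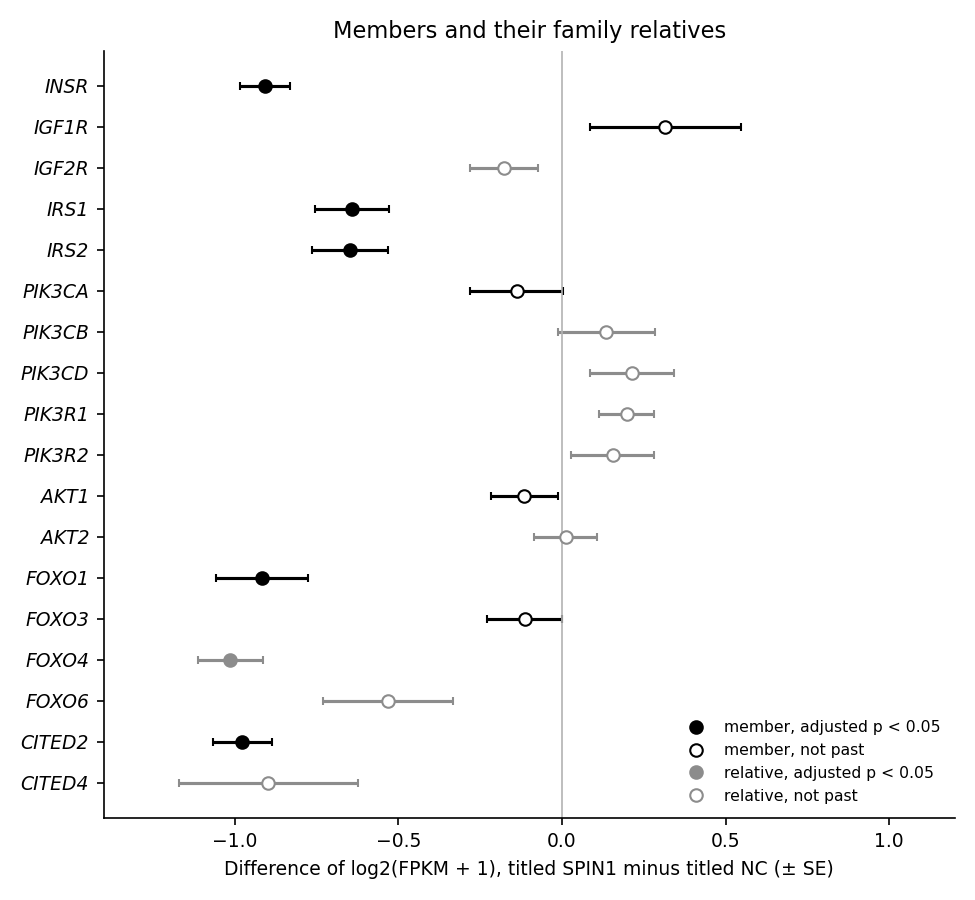
Difference of log2(FPKM + 1), titled SPIN1 minus titled NC, with its SE, for the 9 genes (black) and their family relatives (grey); filled symbols passed limma's test at an adjusted p under 0.05. INSR, IRS1, IRS2, FOXO1, FOXO4 and CITED2 lie between -1.01 and -0.64 and are filled, and the subunits of PI3K and the AKT genes lie between -0.14 and 0.21 and are open.

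Of the 9 genes, only PIK3CA had an exact match to the forkhead letters searched, and other forms of that motif were not searched. Its promoter is shown with those of the 5 lower genes, so that the letters can be read beside the values. Each is the 250 bases before the outermost annotated start, from RefSeq on GRCh38.p14, written 5′ to 3′ on the strand of the gene, and all 9 symbols matched. CITED2 has 3 starts in that table, FOXO3 has 4 and AKT1 has 2; for the other genes there is 1. Capitals mark matches on either strand to the GC box GGGCGG, the forkhead motif GTAAACA and the E-box CACGTG.
INSR (chr19:7294415-7294664, minus strand): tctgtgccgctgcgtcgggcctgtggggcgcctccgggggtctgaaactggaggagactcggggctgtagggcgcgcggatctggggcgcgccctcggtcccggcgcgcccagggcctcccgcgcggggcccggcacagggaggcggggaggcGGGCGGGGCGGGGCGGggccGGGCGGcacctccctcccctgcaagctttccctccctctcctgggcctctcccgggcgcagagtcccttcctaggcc
IRS1 (chr2:226799821-226800070, minus strand): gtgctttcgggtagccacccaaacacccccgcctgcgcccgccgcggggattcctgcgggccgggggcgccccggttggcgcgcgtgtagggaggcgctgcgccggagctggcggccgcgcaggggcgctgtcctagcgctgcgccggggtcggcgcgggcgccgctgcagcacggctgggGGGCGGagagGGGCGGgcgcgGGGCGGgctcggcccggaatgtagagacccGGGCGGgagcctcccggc
IRS2 (chr13:109786584-109786833, minus strand): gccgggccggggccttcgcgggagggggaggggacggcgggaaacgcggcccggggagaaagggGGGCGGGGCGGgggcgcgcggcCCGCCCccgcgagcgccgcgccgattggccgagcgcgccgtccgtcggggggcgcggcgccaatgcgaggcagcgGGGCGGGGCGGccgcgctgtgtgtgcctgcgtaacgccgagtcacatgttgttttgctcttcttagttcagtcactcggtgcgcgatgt
FOXO1 (chr13:40666642-40666891, minus strand): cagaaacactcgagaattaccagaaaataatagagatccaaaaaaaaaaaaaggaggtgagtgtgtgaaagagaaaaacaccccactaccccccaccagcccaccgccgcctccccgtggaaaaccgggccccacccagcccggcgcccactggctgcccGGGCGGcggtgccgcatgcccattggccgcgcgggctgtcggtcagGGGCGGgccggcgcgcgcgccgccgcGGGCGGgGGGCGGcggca
CITED2 (chr6:139374649-139374898, minus strand): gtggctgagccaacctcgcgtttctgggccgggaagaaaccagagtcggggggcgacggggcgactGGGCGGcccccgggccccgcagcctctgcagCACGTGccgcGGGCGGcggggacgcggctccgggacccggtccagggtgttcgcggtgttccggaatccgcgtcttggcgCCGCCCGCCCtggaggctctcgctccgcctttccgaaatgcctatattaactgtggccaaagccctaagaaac
PIK3CA (chr3:179148107-179148356, plus strand): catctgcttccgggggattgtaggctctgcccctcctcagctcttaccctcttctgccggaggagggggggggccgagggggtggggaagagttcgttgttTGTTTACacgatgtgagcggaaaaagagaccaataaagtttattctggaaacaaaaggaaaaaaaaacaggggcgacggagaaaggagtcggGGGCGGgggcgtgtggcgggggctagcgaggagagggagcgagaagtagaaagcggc
GC boxes were in the windows of all 9 genes, where 42.6% of 35116 windows of this length held at least 1. INSR and IRS1 each had 4 matches, IRS2 had 5, FOXO1 and CITED2 had 4 and PIK3CA had 1, overlapping matches counted singly. Of the genes that did not pass the test, AKT1 had 7, FOXO3 had 5 and IGF1R had 2, so the count of boxes did not separate the genes by their call. GC content was 67.2% to 80.8% in the windows of the 5 lower genes and 57.6% to 83.2% in those of the other 4, against a median of 58.0% over all windows. The forkhead letters occurred in PIK3CA alone, on the minus strand from 149 bases before the start, where 2.98% of all windows held them. The E-box occurred in CITED2 alone, 153 bases before the start, where 6.34% held it.

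The order of the levels differed between the groups. In libraries titled SPIN1 the mean FPKM fell in the order AKT1 (11.4), CITED2 (7.57), IGF1R (5.93), FOXO1 (4.43), IRS1 (4.22), IRS2 (3.01), FOXO3 (2.42), PIK3CA (1.45) and INSR (0.324). In libraries titled NC the order was CITED2 (15.9), AKT1 (12.5), FOXO1 (9.20), IRS1 (7.13), IRS2 (5.26), IGF1R (4.74), FOXO3 (2.69), PIK3CA (1.70) and INSR (1.48). FOXO1 and IRS1 in the SPIN1 libraries, IRS2 and FOXO3 there, and IRS2 and IGF1R, IGF1R and FOXO3, and PIK3CA and INSR in the NC libraries had ranges that overlapped, so their order within those groups is not fixed. Likeness was measured as the root mean square distance between log2(FPKM + 1) profiles over the 6 libraries, each centred on its mean, against 8584 genes averaging 2 FPKM or more for INSR and 8583 for the others. The profiles nearest to INSR were RAP1GAP2 (0.0393) and TBC1D2 (0.0535). As 1 FPKM was added, which compresses the change of a gene as low as INSR, this is not a likeness of folds. RAP1GAP2 averaged 3.12 FPKM in SPIN1 and 6.54 FPKM in NC libraries, and TBC1D2 5.02 and 9.78 FPKM, both smaller folds than that of INSR. LATS2 (0.0476) and BTG1 (0.0677) were nearest to CITED2, TRIB1 (0.0371) and WWC3 (0.0686) to FOXO1, and CNST (0.0424) and EPRS (0.0454) to IRS1.

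The calls of the 5 lower genes held in every alternative in which they were tested. INSR was past the threshold in 15 of 15 alternatives (adjusted p up to 0.00916), as the filter at a mean of 2 FPKM left it out, and CITED2 (up to 0.00789), FOXO1 (up to 0.0252), IRS1 (up to 0.0356) and IRS2 (up to 0.0370) were past it in 16 of 16. IGF1R, FOXO3, PIK3CA and AKT1 were past it in 0 alternatives. With both libraries numbered 1 left out, the log2 differences were -0.90 for INSR, -1.04 for CITED2, -0.87 for FOXO1, -0.61 for IRS1 and -0.74 for IRS2. Without NC replicate 1 alone they were -0.90 for INSR, -1.02 for CITED2, -0.99 for FOXO1, -0.67 for IRS1 and -0.66 for IRS2.

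Other genes of the pathway were counted in 5 lists that hold none of the 9 genes. Of 34 tested ligands, receptors and adaptors, 6 passed the test as higher (17.6%, against 17.3% of all genes tested) and 8 as lower (23.5%, against 10.3%), and 20 missed it, with a median difference of 0.0041. SOCS3, a feedback inhibitor of cytokine and insulin receptors, was 3.23-fold lower at 27.0 ± 3.05 FPKM in SPIN1 libraries against 87.3 ± 6.87 FPKM in NC libraries (n = 3 each, SD), with a log2 difference of -1.66 (limma adjusted p = 0.000545). SOCS1, of the same family, was 4.20-fold higher at 2.22 ± 0.349 FPKM in SPIN1 libraries against 0.529 ± 0.0692 FPKM in NC libraries. The docking protein GAB2 was 3.30-fold lower at 2.88 ± 0.233 FPKM in SPIN1 libraries against 9.50 ± 0.748 FPKM in NC libraries. IGFBP2, a secreted binder of insulin-like growth factors, was 3.02-fold lower and CAV1, the coat protein of caveolae, 2.69-fold higher. The adaptor GRB10, which binds and restrains the insulin receptor and was singled out after its value was seen, was lower at 1.95 ± 0.147 FPKM in SPIN1 libraries against 3.62 ± 0.442 FPKM in NC libraries. The count of 6 higher was 3 without SPIN1 replicate 2 or NC replicate 2, and 2 without NC replicate 3 or after median scaling, and that of 8 lower was 5 without NC replicate 2 or 3.

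Of 44 tested genes of PI3K and AKT control, 4 rose (9.09%), 5 fell (11.4%) and 35 missed the threshold (median -0.02). TRIB3, a pseudokinase that binds AKT and a known ATF4 target, was 5.68-fold lower, at 22.5, 15.9 and 14.4 FPKM in SPIN1 libraries and 76.7, 62.6 and 161 FPKM in NC libraries. Its relative TRIB1 was 1.86-fold lower. PIK3C2B, a class II PI3K, was at 5.13 ± 0.215 FPKM in SPIN1 libraries against 8.29 ± 0.324 FPKM in NC libraries. ILK, an integrin-linked scaffold, was 1.79-fold higher. AS3MT, an arsenic methyltransferase without a known role in the pathway, was 1.76-fold higher and is counted among the 4 that rose. The count of 5 lower was 3 without NC replicate 3, and with weights per library 9 genes were higher and 8 lower.

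In the TSC, mTORC1 and nutrient-sensing list 4 of 50 tested genes rose (8%), 8 fell (16%) and 38 missed the threshold (median -0.0036). EIF4EBP1, the translation repressor that mTORC1 switches off and an ATF4 target, was 3.36-fold lower at 40.9 ± 3.87 FPKM in SPIN1 libraries against 137 ± 18.8 FPKM in NC libraries. SESN2, a leucine sensor induced by p53 and ATF4, was at 8.22, 2.95 and 2.55 FPKM in SPIN1 libraries and at 23.0, 21.2 and 22.3 FPKM in NC libraries, so that SPIN1 replicate 1 stood between. The translation factor EIF4B was 1.54-fold lower, whereas RRAGA, a GTPase that recruits mTORC1 to lysosomes, was 1.51-fold higher and EEF2K, which slows translation elongation, 2.17-fold higher. The count of 8 lower was 4 without NC replicate 1, 2 or 3 or SPIN1 replicate 2 or 3, and that of 4 higher was 7 with weights per library.

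Among 47 tested regulators of FOXO proteins and partners of CITED2, 9 rose (19.1%), 7 fell (14.9%) and 31 missed the threshold (median 0.07). SFN, the stratifin that holds phosphorylated proteins in the cytoplasm, was 1.94-fold higher at 43.1 ± 4.59 FPKM in SPIN1 libraries against 22.2 ± 0.840 FPKM in NC libraries. LHX2, a LIM homeodomain factor, was 3.15-fold higher and SMAD3, which relays TGF-beta signals, 1.93-fold higher. OTUD1, a deubiquitinase, was 1.74-fold lower, and FOXO4 was the gene of this list with the smallest adjusted p. The count of 7 lower was 4 without NC replicate 2 or 3 and 11 with both libraries numbered 1 left out, and with weights per library 16 genes were higher and 12 lower.

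Of 50 tested genes described as FOXO targets, 16 fell (32%), 7 rose (14%) and 27 missed the threshold, with a median of -0.32, where 10.3% of all genes tested fell and 17.3% rose. The list was not divided by whether FOXO proteins induce or repress a gene. TXNIP, which restrains thioredoxin and the uptake of glucose, was 11.3-fold lower at 1.91, 1.71 and 1.13 FPKM in SPIN1 libraries and 10.7, 22.7 and 20.03 FPKM in NC libraries. BTG1, an antiproliferative factor, was 1.88-fold lower. CAT, which encodes catalase, was 3.55-fold higher at 41.7 ± 5.84 FPKM in SPIN1 libraries against 11.8 ± 0.647 FPKM in NC libraries, and BNIP3, a receptor for mitophagy and a hypoxia target, 2.76-fold higher at 12.7 ± 1.99 FPKM in SPIN1 against 4.61 ± 0.167 FPKM in NC libraries. CDKN1A, which arrests the cell cycle and is also a p53 target, was singled out after its value was seen: it was lower at 73.0 ± 37.9 FPKM in SPIN1 libraries against 153 ± 19.9 FPKM in NC libraries (limma adjusted p = 0.0415), and leaving out any library except SPIN1 replicate 1 ended this call, in 5 of 6 fits, with an adjusted p of up to 0.121. EIF4EBP1 and TRIB1 are also in this list. The count of 16 lower was 10 without SPIN1 replicate 3 or NC replicate 3, and that of 7 higher was 4 without SPIN1 replicate 2 or 3. Over the 5 lists, all 24 genes named by rank of adjusted p kept their calls whichever library was left out (adjusted p up to 0.0360). As they were picked for small adjusted p in these same libraries, this adds no support to the lists.

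**Figure D4:**
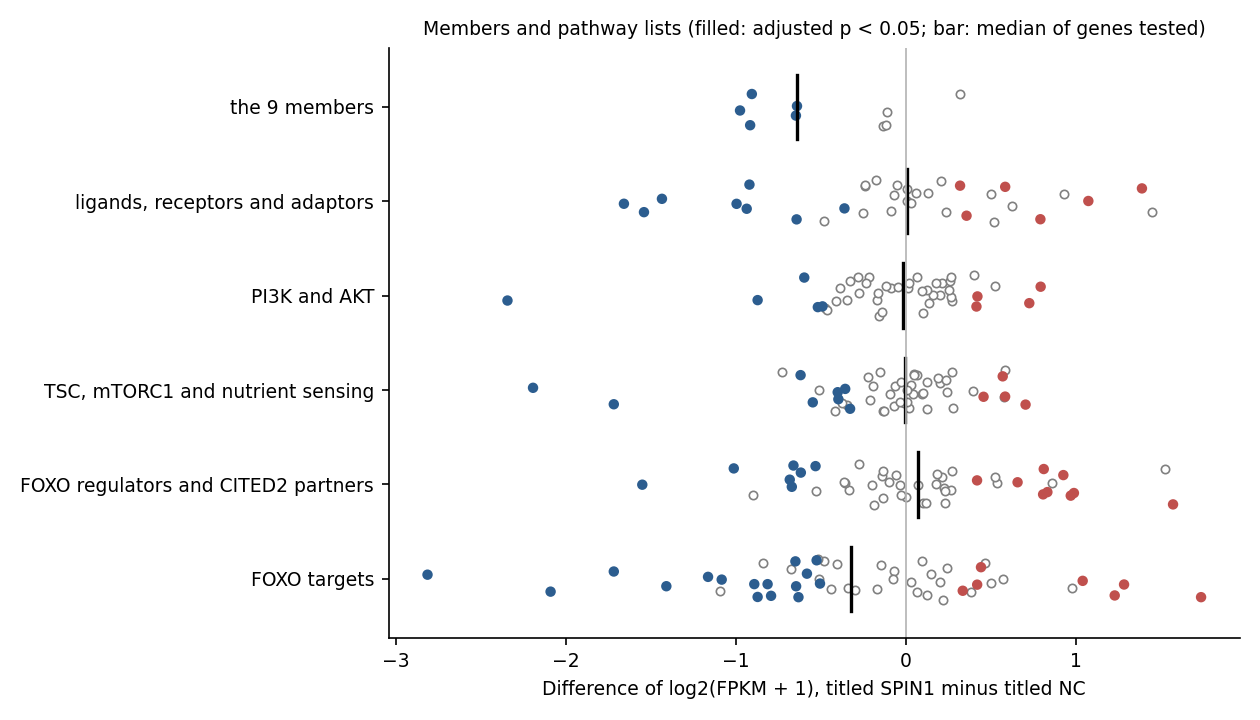
Difference of log2(FPKM + 1), titled SPIN1 minus titled NC, for the 9 genes and each tested gene of the 5 lists; filled blue symbols were called lower, filled red symbols higher and open symbols did not pass, and bars mark medians. The medians of the first 4 lists lie between -0.02 and 0.07, and that of the FOXO targets at -0.32.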

How the data were processed

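Messenger RNA of 6 libraries was measured. Per the labels' protocols, poly(A) RNA was made into strand-specific paired-end libraries by the dUTP method and sequenced on a NovaSeq instrument. The tools FastQC, cutadapt, HISAT2 and StringTie and the build hg19 come per the submitters' processing notes, which give no versions. The table deposited by the authors gives FPKM for each gene and library, as its headers say; whether counting used strand is unknown from the sources used here. An FPKM value is relative to the library, so very abundant genes lower all others. Every row had a group mean of at least 0.5003 FPKM in 1 group or the other. No step of whole reads was found below 0.15 FPKM (at most 4 of 12 to 35 log2 ratios per pair within 0.02), so no counting interval was computed.

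From there, limma 3.58.1 (R 4.3.3, trend and robust moderation with statmod 1.5.0) was fitted to log2(FPKM + 1) of 11061 genes, leaving out 253, as titled SPIN1 minus titled NC, with Benjamini-Hochberg adjustment over all. Folds are ratios of mean FPKM. The fit was tested on simulated data. The 16 alternatives changed the pseudocount (0.1 or 0.01), filter, scaling, moderation, weights, replicate block or libraries used. Named genes were the 9 genes, their relatives, the 5 smallest adjusted p per list, and the 2 nearest profiles for the 4 lower genes with the smallest p. The values of 1 relative of the 9 genes are not reported here. The genes and lists were chosen with earlier results of these data known. Figures were drawn with matplotlib 3.10.9.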

Additional observations from a re-analysis of the deposited data

How the results depend on the processing

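The 5 lower and 0 higher calls among the 9 genes were the same in all 16 alternatives, except that INSR and PIK3CA were not tested at a mean of at least 2 FPKM. Counts over all genes moved most with weights per library (3106 higher, 2304 lower), and ran from 1139 to 2042 higher and 635 to 1267 lower with 1 library left out. In the same fits, ligands, receptors and adaptors ran from 2 to 5 higher and 5 to 7 lower, PI3K and AKT genes from 3 to 5 and 3 to 6, TSC and mTORC1 genes from 3 to 4 and 4 to 9, FOXO regulators and CITED2 partners from 7 to 10 and 4 to 8, and FOXO targets from 4 to 7 and 10 to 18. Beyond 1.5 times, weights per library gave 9 higher and 8 lower PI3K genes, 7 higher mTORC1 genes and 16 higher and 12 lower FOXO regulators; median scaling gave 2 higher ligands, receptors and adaptors; the filter at 2 FPKM gave 2 higher PI3K genes; and leaving out both libraries numbered 1 gave 11 lower FOXO regulators. The causes were not tested, and the filter also left fewer genes to test.

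SPIN1 passed the threshold with weights per library (log2 difference -1.87, limma adjusted p = 0.0248) and without NC replicate 1 (-2.03, adjusted p = 0.0302), and ran from -2.03 to -0.65 with 1 library left out. ALKBH3 ran from -0.42 to -0.08 and turned to 0.059 with both libraries numbered 1 left out. Of 33 other named genes, AKT2 turned sign, to -0.054 after median scaling and -0.062 after quantile normalization, and it ran from -0.033 (without NC replicate 2; -0.026 without SPIN1 replicate 2) to 0.044 with 1 library left out. CITED4 passed the threshold after quantile normalization (limma adjusted p = 0.0368), weights per library (0.0150) and both libraries numbered 1 left out (0.0259). Among the other relatives reported here, FOXO6 passed it in 3 alternatives and PIK3R1 in 1.

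Whether equal replicate numbers pair the libraries is not known. Deviations of same-numbered libraries correlated at 0.22, 0.06 and 0.15 across genes, and those of differently numbered libraries at -0.21 to 0.08. With the replicate number as a block, the log2 differences could not change in this balanced design, and only their SE and p-values could. In that fit INSR had a limma adjusted p of 0.00708 and 5 of the 9 genes were lower, while CITED4 (0.0135) passed the threshold. The unknown depth limits what the low FPKM of INSR and PIK3CA can show.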

Other observations

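Some pathway genes had a single library far from the others of its group, a comparison chosen after the data were seen. Of the 219 tested genes in the 5 lists, 10 had a group with a mean of at least 2 FPKM whose highest library was at least 4 times its lowest, as had 2.47% of all tested genes and 0 of the 9 genes described first. MYC, a growth-promoting factor that FOXO proteins oppose, was at 63.4, 75.2 and 97.0 FPKM in libraries titled SPIN1 and at 54.8, 65.7 and 4.45 FPKM in those titled NC. GRB2, the adaptor that links receptors to RAS, was at 6.05, 5.10 and 36.7 FPKM in SPIN1 libraries and at 3.79, 5.54 and 6.52 FPKM in NC libraries. PDPK1, the kinase that activates AKT, was at 1.18, 4.12 and 4.79 FPKM in SPIN1 libraries and at 4.21, 4.26 and 4.29 FPKM in NC libraries. STK4, a kinase that phosphorylates FOXO proteins, was at 5.23, 5.90 and 6.23 FPKM in SPIN1 libraries and at 6.32, 0.767 and 6.88 FPKM in NC libraries. The stray library was thus not the same among these 4 genes. BBC3 and GADD45A, also of the 10, shared a high SPIN1 replicate 1. In SPIN1 libraries BBC3 was at 11.05, 1.81 and 1.75 FPKM and GADD45A at 25.1, 5.86 and 10.5 FPKM. SPIN1 replicate 1 was also the highest SPIN1 library for CDKN1A, MDM2 and SESN2, which are not of the 10. Of the 10, it was the lowest SPIN1 library for BMI1, MAPK14, MYC, PDPK1, STK4 and YWHAB. The cause was not tested.

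PIK3IP1, an inhibitor of PI3K that FOXO proteins are known to induce, was left out by the filter on low values. It was at 0.601, 0.895 and 0.989 FPKM in libraries titled SPIN1 and at 0.0897, 0.0707 and 0.260 FPKM in those titled NC. These groups did not overlap, as in 46% of all tested genes in either direction. Every row had a mean of at least 0.5003 FPKM in 1 group or the other. PIK3IP1 reached it only in SPIN1 libraries (mean 0.829 FPKM, against 0.140 FPKM in NC libraries), so its higher values there support nothing.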
